A study of Mus musculus with 2 samples.

Results

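The genes of the WNT pathway that were chosen by name numbered 59 of the 49492 genes in a table of RNA-seq read counts from mouse mammary colonies/organoids. They were the Wnt ligands (19 genes), the ligand secretion genes Porcn and Wls (2), the frizzled receptors and the co-receptors Lrp5 and Lrp6 (12), the R-spondins with their receptors Lgr4, Lgr5 and Lgr6 (7), the secreted antagonists (10), the feedback genes Axin1, Axin2, Nkd1, Nkd2, Rnf43 and Znrf3 (6), and Ctnnb1, Tcf7 and Lef1 (3), which encode β-catenin and 2 of the factors that carry it to DNA. The rule that chose them used gene names only. Axin2 and Lgr5, both known targets of β-catenin, served as readouts of the pathway.

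The study asked how macrophages and the cytokine TNF-α act on mammary stem cells, which reside among the basal cells of the mammary ducts. Basal cells (CD24+ CD29hi and negative for CD45, CD31 and TER119) were isolated by FACS from mammary glands of adult female WT mice, which the methods give as 8 to 10 weeks old. They were grown in matrix gel for 10 days in medium with EGF at 50 ng/mL and the supplement ITS, either without further treatment (control, 1 library) or with recombinant mouse TNF-α at 10 ng/mL (1 library). No WNT protein or R-spondin is named as part of this medium. The mouse strain and the number of animals behind each library are not given in the sources used here, and the cells were primary cells, not a line. With 1 library per condition there was no replicate check and no test, and the comparison is between 2 libraries.

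WNT ligands are secreted lipid-modified proteins that bind a frizzled receptor together with Lrp5 or Lrp6. Binding stabilises β-catenin, which enters the nucleus and drives transcription with TCF/LEF factors, and several of the genes it drives, Axin2 among them, damp the signal again. R-spondins, through Lgr receptors, protect frizzled receptors from removal by the ubiquitin ligases Rnf43 and Znrf3, and in the mammary gland WNT and R-spondin signals are known to sustain basal stem cells.

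The control library held 44462275 counts and the TNF-α library 53487087, and after TMM scaling the TNF-α library was 1.20 times the size of the control. A count of 10 was worth 0.224 CPM (counts scaled to library size) in the control and 0.187 CPM with TNF-α, and a gene with 0 counts may lie as high as 3 counts, 0.0673 CPM and 0.0562 CPM. Levels are given as RPKM, CPM on the scaled library sizes divided by the summed exon length in kilobases, and differences as the log2 ratio of CPM, TNF-α over control, with a prior count of 2. Each ratio has a 95% Clopper-Pearson interval, which covers counting error only. The interval takes each count as independent, but low counts were mostly even numbers, so the intervals may be too narrow even for counting error. Both libraries had the RNA of basal epithelium, with Krt14 at 2933 and 2771 RPKM and Krt5 at 1121 and 1257 RPKM, and also that of luminal cells, with Krt8 at 672 and 627.3 RPKM, in control and TNF-α. In bulk RNA, fewer cells of a type and less RNA per cell cannot be told apart.

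For 4 of the genes with large ratios, the sequence is shown of the 250 bases upstream of the start site, 5′ to 3′ on the gene's strand, as RefSeq gives them for GRCm38.p6. Dkk2 (chr3:132085042-132085291) and Wif1 (chr10:121033754-121034003) had the highest ratios of the 59 genes, Axin2 (chr11:108920099-108920348) is the readout gene, and Wnt10b (chr15:98778151-98778400, minus strand) is a ligand whose upstream sequence holds 2 matches to the NF-κB consensus, marked by capitals. NF-κB is the family of transcription factors that TNF receptors are known to activate.
Dkk2: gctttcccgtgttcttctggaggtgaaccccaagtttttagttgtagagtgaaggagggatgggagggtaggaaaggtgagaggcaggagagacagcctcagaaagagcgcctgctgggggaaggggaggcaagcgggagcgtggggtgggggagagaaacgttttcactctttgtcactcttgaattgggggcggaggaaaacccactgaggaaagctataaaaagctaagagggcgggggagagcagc
Wif1: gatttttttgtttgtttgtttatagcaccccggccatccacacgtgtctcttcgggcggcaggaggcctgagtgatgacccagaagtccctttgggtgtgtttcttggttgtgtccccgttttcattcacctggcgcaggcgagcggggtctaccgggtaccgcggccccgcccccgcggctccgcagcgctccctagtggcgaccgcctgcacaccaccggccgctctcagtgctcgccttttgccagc
Axin2: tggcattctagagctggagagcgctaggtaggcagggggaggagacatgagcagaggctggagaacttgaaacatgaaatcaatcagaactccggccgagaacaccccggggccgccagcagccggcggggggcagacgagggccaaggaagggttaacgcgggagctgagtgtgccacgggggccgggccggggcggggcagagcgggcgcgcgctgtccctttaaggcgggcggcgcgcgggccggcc
Wnt10b: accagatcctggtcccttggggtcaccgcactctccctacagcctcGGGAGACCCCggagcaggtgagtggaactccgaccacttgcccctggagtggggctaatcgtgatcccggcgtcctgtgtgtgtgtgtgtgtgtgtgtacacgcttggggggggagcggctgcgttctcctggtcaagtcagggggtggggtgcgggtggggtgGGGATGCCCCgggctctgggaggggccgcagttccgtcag
Windows of 300 bases, from 250 before to 50 after the start site, were searched on both strands for the NF-κB consensus and for the TCF/LEF core spelled CTTTGNN, with A or T at each N. Of all 32851 windows in the table, 4.51% held the NF-κB consensus and 16.9% the TCF/LEF core. A window was searched for 38 of the 59 genes, and Lgr5, Wnt10a and Rspo2 were among those without one. The NF-κB consensus was found in 2 of the 38, in Wnt10b at 204 and 40 bases before the start site and in Rspo1 as 3 overlapping matches at the start site. The TCF/LEF core was found in 6 of the 38, namely Dkk1, Fzd7, Lef1, Wnt11, Wnt3 and Wnt5b. Some genes had several windows, and in Lef1, Wnt5b and Wnt11 not all of them held the core. The window of Lef1 that held it lay inside the gene (chr3:131156044-131156343). Counted as windows, like the shares above, 2 of 47 held the NF-κB consensus and 6 of 47 the TCF/LEF core. A match of letters does not show that a factor binds there, and the windows of Dkk2, Wif1 and Axin2 held neither motif.

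Compared with that of control, the TNF-α library had higher RNA of 10 WNT genes and lower RNA of 3. The antagonists Dkk2 and Wif1, the ligands Wnt10a and Wnt10b, the R-spondins Rspo2, Rspo3 and Rspo4, the feedback genes Axin2 and Nkd2, and Lef1 were the higher genes. The R-spondin receptor Lgr5, the antagonist Sfrp2 and the receptor Fzd10 were the lower genes. A gene was called when it differed by more than 2-fold and its counting interval left out no change, among the 46 WNT genes with at least 10 counts over both libraries. Of all 20771 genes with that many counts, 7.39% were called higher and 5.89% lower (13.3% in either direction), against 21.7% and 6.52% of the 46 WNT genes. The share called higher was thus above the background and the share called lower was near it. Rspo2, Rspo3 and Rspo4 had 4 counts or fewer in the control and passed the minimum only through their TNF-α counts. They make up part of the 21.7%. With a filter of 1 CPM in a library, which can also be passed through 1 library, 6 of 39 WNT genes were called higher, beside 5.36% of all genes. When a coefficient of variation of 0.2 between cultures was assumed in edgeR's exact test, the calls of Nkd2, Lef1, Rspo2, Rspo3 and Lgr5 were lost, and at 0.4 only those of Dkk2, Wif1 and Fzd10 were left. The median log2 ratio of the 46 genes was 0.17, beside 0.0038 for all genes, and 27 lay above 0 and 19 below. Summed over the 59 genes, 102491 counts in the control stood against 127122 with TNF-α, a log2 ratio of 0.05 after scaling. The other 13 genes had under 10 counts, and 6 of these (Wnt1, Wnt3, Wnt3a, Wnt9b, Dkk1 and Dkk4) had 0 in both libraries.

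**Figure D1:**
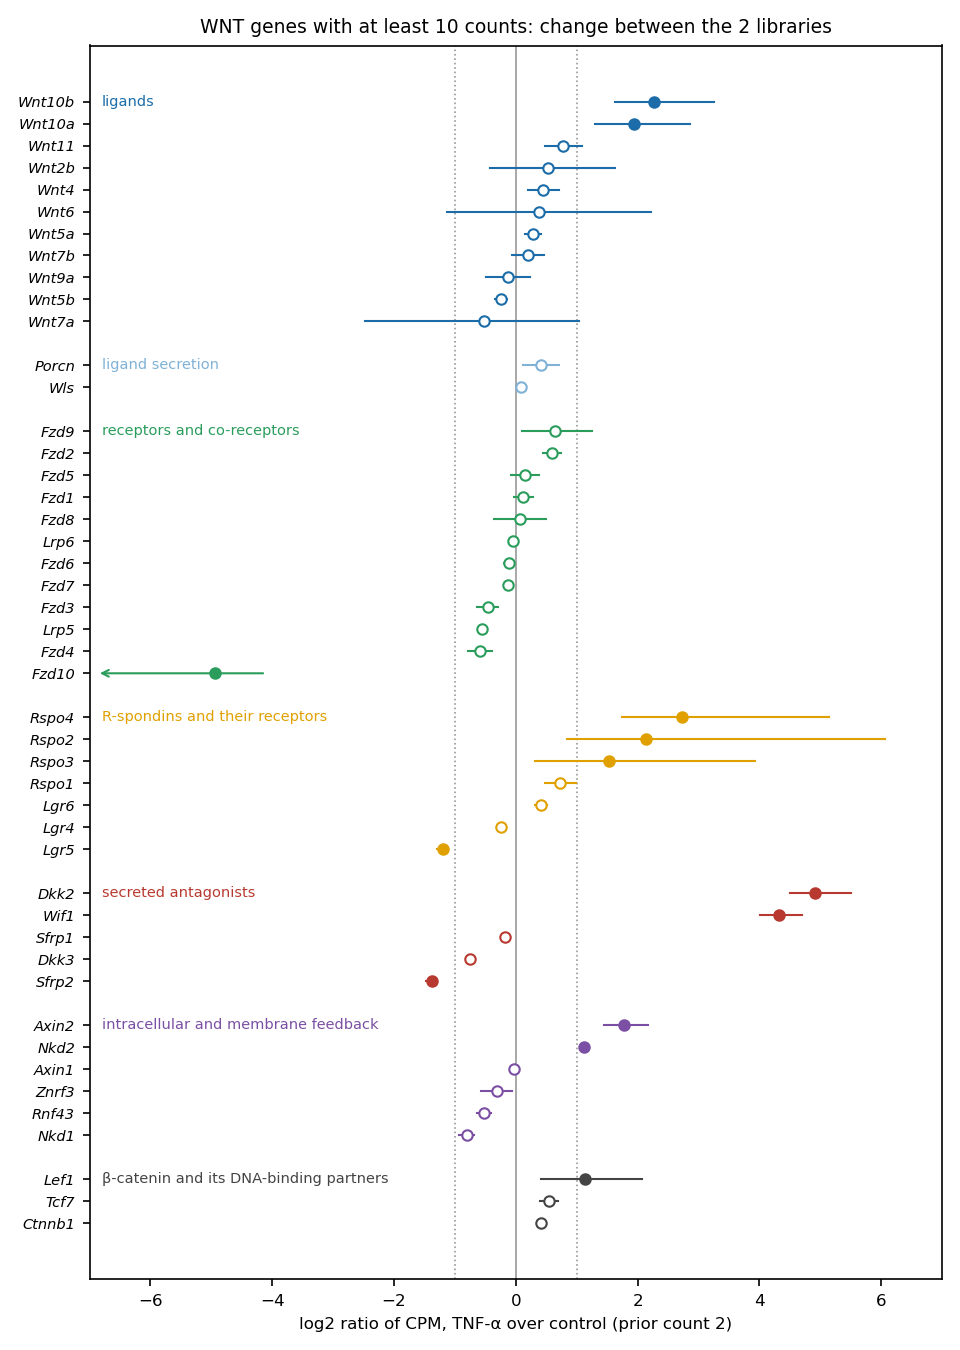
Log2 ratio of CPM (TNF-α over control, x axis) for the 46 WNT genes with at least 10 counts, grouped by role and coloured by group. Points are ratios, lines are 95% counting intervals with no replicate error, filled points are the 13 called genes, dotted lines mark 2-fold, and the arrow of Fzd10 marks an interval with no lower end because its TNF-α count was 0; Dkk2 at 4.91 and Wif1 at 4.32 lie farthest to the right.

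Among the ligands, most of the RNA came from Wnt5b, and the called genes were rare ones. Wnt5b, a ligand known mainly for signalling without β-catenin, had 1738 counts in the control and 1755 with TNF-α. Its level of 14.7 and 12.4 RPKM made up 68.8% and 57.0% of the summed level of all 19 ligands, and its log2 ratio was -0.25 (95% interval -0.34 to -0.15). The related ligand Wnt5a followed with 809 and 1174 counts (2.32 and 2.81 RPKM, log2 ratio 0.28, interval 0.15 to 0.41). A gene on the opposite strand, Gm2670, shares 4.58% of the exon bases of Wnt5a, and whether the counts used strand is not given in the sources used here. Wnt4, which in the mammary gland is known as a ligand made by luminal cells in response to progesterone, had 208 and 340 counts (1.11 and 1.52 RPKM, log2 ratio 0.45, interval 0.20 to 0.71). None of these 3 ligands differed by 2-fold.

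Wnt10b and Wnt10a, closely related ligands that act through β-catenin, were the 2 ligands called. Wnt10b (chromosome 15, 98771753 to 98778150 on GRCm38) had 16 counts in the control and 101 with TNF-α, or 0.154 and 0.811 RPKM. Its log2 ratio was 2.27 (1.63 to 3.26), a fold of 5.27 before the prior count. Wnt10a (chromosome 1, 74791516 to 74804179) had 18 and 89 counts, or 0.164 and 0.676 RPKM, and a log2 ratio of 1.94 (1.30 to 2.86). Even with TNF-α both stood below Wnt5b, Wnt5a, Wnt4, Wnt7b and Wnt11 per exon length. They ranked 425th and 584th from the highest ratio among the 20771 genes.

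The remaining 6 ligands with at least 10 counts ran from a log2 ratio of -0.52 in Wnt7a (8 and 6 counts) to 0.77 in Wnt11 (136 and 280 counts, interval 0.48 to 1.09). Wnt11, a ligand of the branch without β-catenin, passed a fold of 1.5 but not of 2. Wnt7b had 211 and 289 counts and Wnt9a 123 and 135, and the intervals of both included 0. Wnt2b had 14 and 25 counts and Wnt6 had 6 and 10, too few to place their ratios on either side of 0. Wnt8a, Wnt16, Wnt2 and Wnt8b had between 0 and 5 counts in a library. The summed level of the 19 ligands was 21.4 RPKM in the control and 21.7 RPKM with TNF-α, so that the ligand total hardly differed while the part that was not Wnt5b was larger with TNF-α.

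Neither gene of ligand secretion was called. Wls, which carries lipid-modified ligands to the cell surface, had 2899 and 3698 counts (7.40 and 7.88 RPKM, log2 ratio 0.09, interval 0.02 to 0.16). Porcn, the enzyme that attaches the lipid, had 157 and 251 counts (1.17 and 1.57 RPKM, log2 ratio 0.41, interval 0.12 to 0.71).

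Of the 12 frizzled receptors and co-receptors, 11 differed by less than 2-fold. Fzd7, a receptor known for its role in basal stem cells, was the most abundant frizzled, with 8183 and 9006 counts (40.5 and 37.2 RPKM) and a log2 ratio of -0.12 (-0.16 to -0.08). It made up 60.3% of the frizzled level in the control and 58.7% with TNF-α. Fzd6 had 2321 and 2562 counts (12.6 and 11.6 RPKM, log2 ratio -0.12, interval -0.20 to -0.04). The co-receptor Lrp6 had 14128 and 16384 counts (23.2 and 22.5 RPKM) and a log2 ratio of -0.05 (-0.08 to -0.01), which became 0.02 after a correction for GC content and exon length. Its partner Lrp5 was lower, with 6265 and 5076 counts and a log2 ratio of -0.56 (-0.62 to -0.51), and remained within 2-fold.

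Fzd10 was the exception. It lies on chromosome 5 (128600844 to 128604093) and had 54 counts in the control (0.373 RPKM) and 0 with TNF-α. With its TNF-α count set to the floor of 3, it was 21.6-fold lower, and its counting interval ended at a log2 ratio of -4.08. It was also the rarest of the 10 frizzleds in the mean of both libraries, and only 3 of the 20771 genes had a lower ratio. The other 7 frizzleds ranged in log2 ratio from -0.59 in Fzd4 (468 and 372 counts) to 0.64 in Fzd9 (40 and 76 counts, interval 0.10 to 1.26). Fzd2, the third frizzled in mean level, had 552 and 996 counts, a log2 ratio of 0.59 (0.44 to 0.74), and went from 5.04% to 8.03% of the frizzled level.

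**Figure D2:**
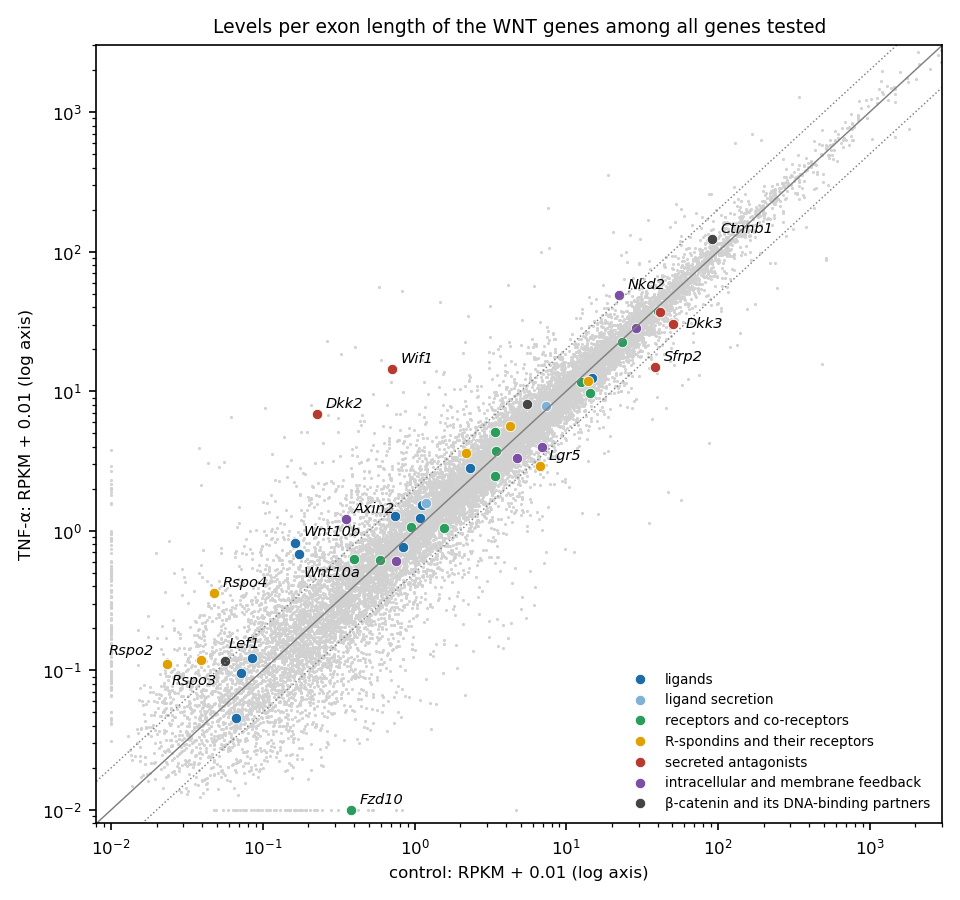
Level in the TNF-α library against level in the control library, as RPKM + 0.01 on log axes, for the 46 WNT genes (coloured by role) and all 20771 genes with at least 10 counts (grey), where the solid line marks equal levels and the dotted lines 2-fold. The higher genes other than Nkd2 had under 1 RPKM in the control, whereas Lgr5 and Sfrp2 had 6.69 and 38.6 RPKM there.

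The R-spondins and their receptors went in opposite directions at their extremes. Lgr5 (chromosome 10, 115450311 to 115587780), known as a stem cell marker in many epithelia, had 3059 counts in the control and 1593 with TNF-α, or 6.69 and 2.91 RPKM. Its log2 ratio was -1.20 (-1.29 to -1.11), a level 2.30-fold lower. Lgr4, the most abundant of the 3 receptors, had 3651 and 3684 counts (13.9 and 11.7 RPKM, log2 ratio -0.25, interval -0.31 to -0.18). Lgr6 had 1291 and 2058 counts (4.23 and 5.63 RPKM, log2 ratio 0.41, interval 0.31 to 0.51). The order of the receptors per exon length was therefore Lgr4, Lgr5 and Lgr6 in the control and Lgr4, Lgr6 and Lgr5 with TNF-α. Their summed level was 24.8 RPKM in the control and 20.3 RPKM with TNF-α.

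All 4 R-spondins had more counts with TNF-α, and 3 of them started from 4 counts or fewer. Rspo4 had 4 counts in the control and 44 with TNF-α (0.0379 and 0.348 RPKM, log2 ratio 2.73, interval 1.74 to 5.14). Rspo2 had 2 and 18 counts (0.0135 and 0.101 RPKM, log2 ratio 2.14, interval 0.85 to 6.06). Its fold before the prior count was 7.52, with a counting interval from 1.80 to 66.8. Rspo3 had 4 and 18 counts (0.0290 and 0.109 RPKM, log2 ratio 1.53, interval 0.31 to 3.93), and it shares 13.1% of its exon bases with a gene on the opposite strand that had 0 counts. At these counts the size of the change was hardly determined, as the width of the intervals shows. Rspo1, which is known to act with Wnt4 on mammary stem cells, was the R-spondin with most RNA, at 188 and 374 counts (2.18 and 3.62 RPKM). Its log2 ratio of 0.73 (0.48 to 0.99) stayed below 2-fold. The summed R-spondin level was 2.26 RPKM in the control and 4.18 RPKM with TNF-α.

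The secreted antagonists held the 2 highest ratios of the 59 genes and also a lower gene. Dkk2 (chromosome 3, 132085292 to 132180304), which binds the co-receptors Lrp5 and Lrp6, had 36 counts in the control and 1360 with TNF-α, or 0.218 and 6.88 RPKM. Its log2 ratio of 4.91 (4.50 to 5.50) corresponds to a 31.6-fold higher level before the prior count, the 15th highest ratio of the 20771 genes. Wif1 (chromosome 10, 121033960 to 121100650), which binds WNT ligands outside the cell, had 76 and 1854 counts, or 0.703 and 14.3 RPKM. Its log2 ratio was 4.32 (4.02 to 4.70), a 20.4-fold higher level and the 32nd highest ratio.

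Sfrp2 (chromosome 3, 83766321 to 83774316), another secreted protein that binds WNT ligands, was lower, with 3707 and 1700 counts, or 38.6 and 14.8 RPKM. Its log2 ratio was -1.38 (-1.47 to -1.30), a 2.61-fold lower level. Gm26771 on the opposite strand shares 16.1% of the exon bases of Sfrp2 and had 42 and 46 counts. Sfrp1 had 8141 and 8623 counts (41.8 and 37.0 RPKM, log2 ratio -0.18, interval -0.22 to -0.13) and differed little. Dkk3, a member of the Dkk family that is not a typical WNT inhibitor, had 7620 and 5413 counts (50.9 and 30.2 RPKM, log2 ratio -0.75, interval -0.80 to -0.70), within 2-fold. The remaining antagonists Sfrp4, Sfrp5, Notum, Dkk1 and Dkk4 had at most 4 counts in a library.

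The make-up of the antagonists therefore differed between the libraries. Dkk3, Sfrp1 and Sfrp2 gave nearly all of the level in the control, at 38.5%, 31.6% and 29.2%. With TNF-α, Wif1 gave 13.9% and Dkk2 gave 6.67%, against 0.531% and 0.165% in the control, and Sfrp2 gave 14.3%. The summed level was 132.3 RPKM in the control and 103.2 RPKM with TNF-α. With TNF-α, Sfrp1 had the larger share at 35.8%, and Dkk3, which led in the control, followed at 29.3%.

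**Figure D3:**
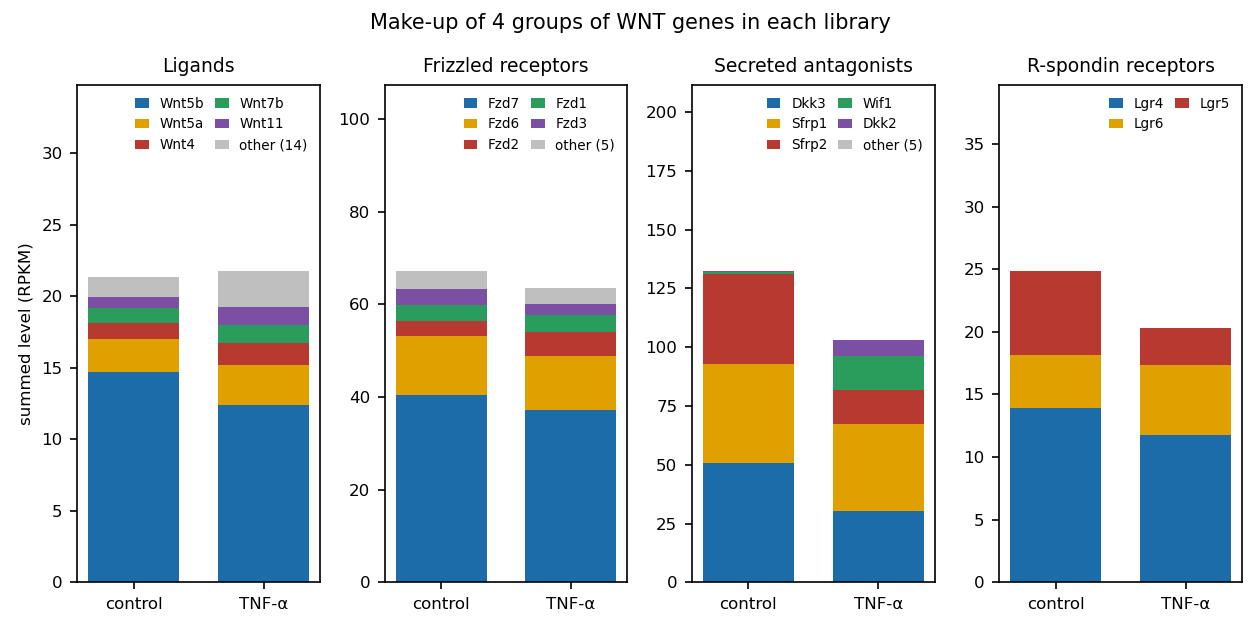
Summed level (RPKM, y axis from 0, a separate scale in each panel) of the ligands, frizzled receptors, secreted antagonists and R-spondin receptors in the control and TNF-α libraries, stacked by gene, with genes after the fifth joined in grey. Wnt5b and Fzd7 are the largest blocks of their panels in both libraries, whereas Wif1 and Dkk2 are visible in the antagonist panel mainly with TNF-α.

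The feedback genes did not move as a block. Axin2 (chromosome 11, 108920349 to 108950783), a scaffold of the complex that degrades β-catenin and a widely used readout of β-catenin transcription, had 84 counts in the control and 351 with TNF-α, or 0.342 and 1.19 RPKM. Its log2 ratio was 1.78 (1.46 to 2.16), a 3.49-fold higher level. Gm11670 on the opposite strand shares 3.80% of the exon bases of Axin2 and had 11 and 28 counts. Nkd2 (chromosome 13, 73818534 to 73847631), which binds Dishevelled and damps WNT signals, had 4711 and 12314 counts, or 22.4 and 48.8 RPKM, and a log2 ratio of 1.13 (1.08 to 1.18). It was the only one of the 10 higher genes above 1 RPKM in the control, and at 56.6% of the feedback level it passed Axin1 in the TNF-α library.

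Axin1, the constitutive relative of Axin2, had 4949 and 5811 counts (29.0 and 28.4 RPKM) and a log2 ratio of -0.03 (-0.08 to 0.03), which became 0.06 after the same correction. Nkd1, the relative of Nkd2, had 1405 and 961 counts (6.92 and 3.95 RPKM) and a log2 ratio of -0.81 (-0.93 to -0.69), the reverse of Nkd2. The ubiquitin ligases that remove frizzled receptors lay below 0 as well, with 1378 and 1153 counts for Rnf43 (log2 ratio -0.52, -0.63 to -0.40) and 261 and 251 counts for Znrf3 (-0.31, -0.57 to -0.06). Nkd1, Rnf43 and Znrf3 were within 2-fold.

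Ctnnb1, Tcf7 and Lef1 lay above 0. Tcf7l2 and Tcf7l1, factors of the same family outside the 59 genes, lay below 0. Tcf7l2 had 3253 and 2336 counts (8.35 and 5.01 RPKM, log2 ratio -0.74, interval -0.81 to -0.66). Tcf7l1 had 1531 and 1568 counts (8.75 and 7.49 RPKM, log2 ratio -0.23, interval -0.33 to -0.12). Ctnnb1 had the highest level of the 59 genes, with 21235 and 33846 counts (91.8 and 122.2 RPKM) and a log2 ratio of 0.41 (0.39 to 0.44). Ulk4 on the opposite strand shares 14.6% of the exon bases of Ctnnb1 and had 5004 and 7827 counts, so reads of the 2 genes may be mixed. Tcf7, which binds DNA with β-catenin, had 647 and 1130 counts (5.53 and 8.07 RPKM, log2 ratio 0.54, interval 0.40 to 0.69). Lef1, of the same family, had 18 and 50 counts (0.0460 and 0.107 RPKM) and was called higher at a log2 ratio of 1.14 (0.41 to 2.08). Gm43352, which shares 13.7% of the exon bases of Lef1 on the opposite strand, had 0 and 16 counts. Lef1 was rare in both libraries, and Ctnnb1 gave 94.3% and 93.7% of the summed level of Ctnnb1, Tcf7 and Lef1.

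Among the WNT genes with at least 10 counts, 7 that are also known as targets of β-catenin did not share a direction. Dkk1 and Notum, known as targets too, had 0 counts in both libraries and 2 and 0 counts. Axin2, Lef1 and Tcf7 lay above 0 and Lgr5, Nkd1, Rnf43 and Znrf3 lay below 0, with calls for Axin2 and Lef1 above and Lgr5 below. Of 12 further target genes, 8 had at least 10 counts, and their median log2 ratio was 0.30. None of these was called higher and 1, Apcdd1, was called lower, beside 13.3% of all genes in either direction. Cd44, a cell surface glycoprotein, had the highest ratio among them, 0.96, just under 2-fold, with 9894 and 23114 counts. Apcdd1, an inhibitor of WNT signals at the cell membrane, had 1224 and 349 counts (9.81 and 2.34 RPKM) and a log2 ratio of -2.06 (-2.25 to -1.90).

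Of 52 other genes of the pathway, 51 had at least 10 counts, and 2 were called higher (3.92%) and 5 lower (9.80%). These 7 calls were 13.7% of the 51, beside 13.3% of all genes, so the total was near the background. Their median log2 ratio was -0.23, and 13 lay above 0 and 38 below. Ror2, a receptor for Wnt5a, had 42 and 186 counts (0.222 and 0.822 RPKM) and the highest log2 ratio, 1.84 (1.40 to 2.41). Dact2, a Dishevelled-binding protein, had 1760 and 4398 counts (log2 ratio 1.06, 0.98 to 1.14). Its relative Dact3 lay on the other side, with 234 and 114 counts and a log2 ratio of -1.28 (-1.63 to -0.97). Prickle2, of the planar polarity branch, had 1974 and 1100 counts and a log2 ratio of -1.10. Dkkl1, a relative of the Dkk genes, had 225 and 54 counts (-2.27, -2.78 to -1.88). The WNT antagonist Sost had 14 and 0 counts, 5.59-fold lower with its TNF-α count set to the floor of 3. Its counting interval ended at a log2 ratio of -1.99. Apcdd1, counted in this list too, was the other lower gene.

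**Figure D4:**
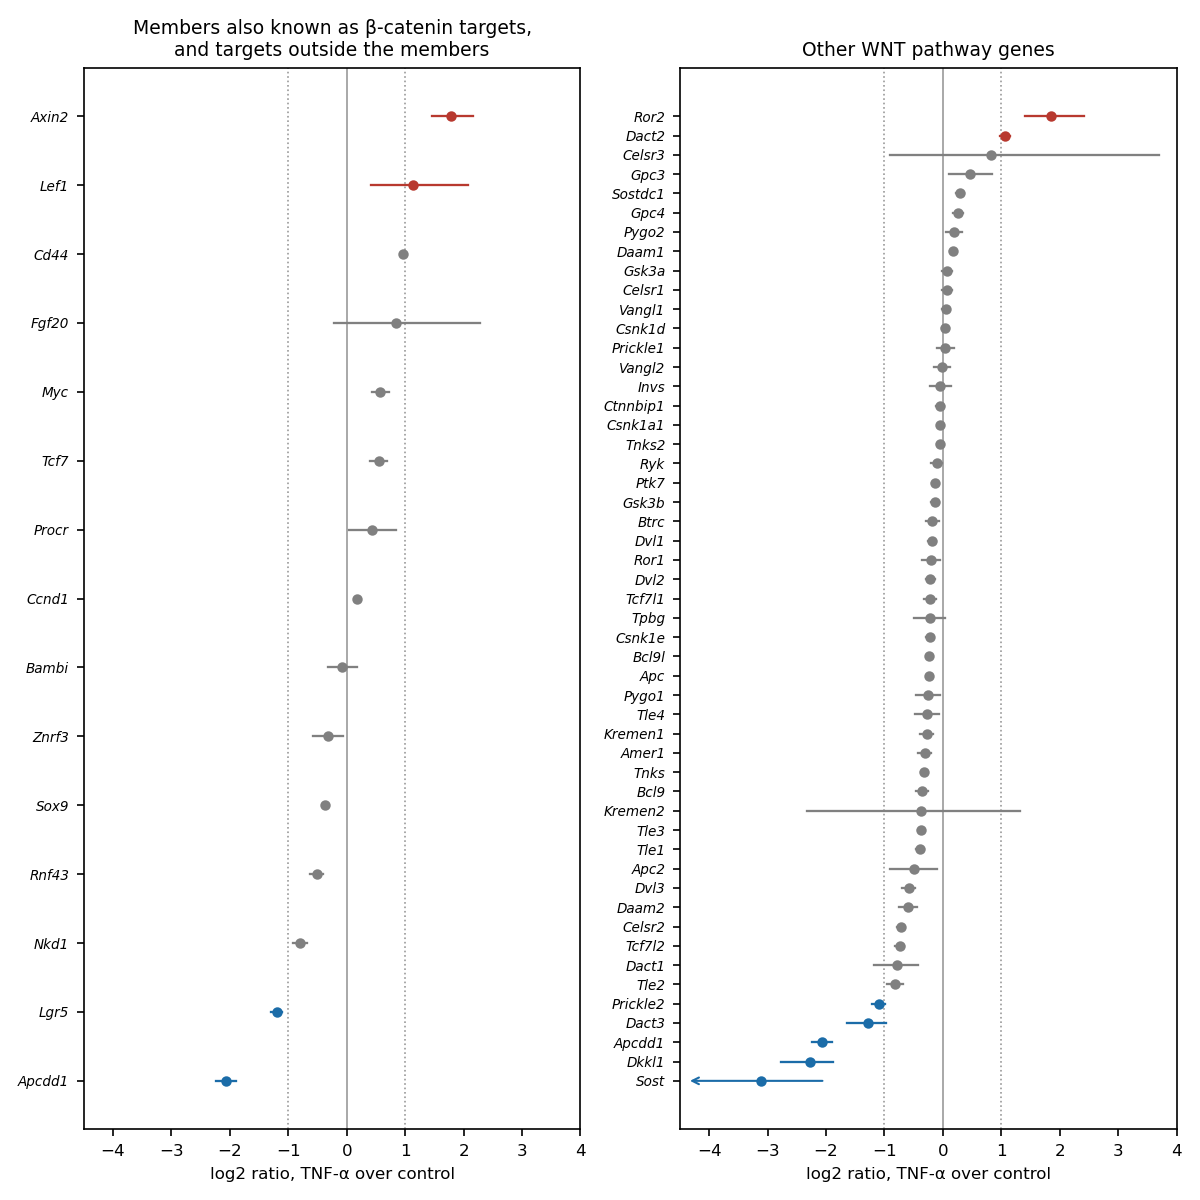
Log2 ratio of CPM (TNF-α over control, x axis) with 95% counting intervals for β-catenin targets (left, 15 genes) and the 51 other WNT pathway genes with at least 10 counts (right). Red marks genes called higher, blue genes called lower and grey genes not called, dotted lines mark 2-fold, and the arrow of Sost marks an interval with no lower end; on the left, Axin2 at 1.78 and Apcdd1 at -2.06 stand at the ends of the list.

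Some markers of luminal, basal and fibroblast cells differed between the libraries too. The summed CPM of 11 luminal markers was lower with TNF-α by a log2 ratio of -0.32. The median log2 ratio of the 11 genes was -0.84, 10 of them lay below 0, and 3 were called lower (27.3%, beside 5.89% of all genes). These were the hormone receptor genes Pgr (7228 and 2970 counts, log2 ratio -1.54), Esr1 (2547 and 1094, -1.48) and Prlr (5767 and 3119, -1.15). The 8 basal markers had a summed log2 ratio of -0.12 and 1, the oxytocin receptor gene Oxtr, was called lower (10762 and 5630 counts, -1.19). That single call was 12.5% of the 8 genes, beside 5.89% of all genes called lower and 13.3% called in either direction. The 8 fibroblast markers had a summed level of 57.6 and 58.0 RPKM. Of these 8, Fbln1 (91 and 317 counts, 1.52) and Dcn (184 and 582 counts, 1.39) were called higher. None was called lower, and Pdgfrb was at -0.93. Calls of 2 of the 8 genes as higher stood above the 7.39% of all genes called higher, but they rest on few genes. All 27 of these luminal, basal and fibroblast markers were detected in both libraries.

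Markers of leukocytes and macrophages (9 genes) summed to 387 and 366 counts, with Cd3e at 0 in both and Adgre1 at 0 and 2. The log2 ratio of that sum after scaling was -0.34 (-0.55 to -0.13). Markers of endothelial cells (5 genes) summed to 315 and 360 counts (log2 ratio -0.07 after scaling, -0.29 to 0.16), with Emcn at 0 and 4. The genes of the proteins used to sort out such cells, Ptprc (CD45) and Pecam1 (CD31), had 26 and 38 and 117 and 114 counts. Of 4 adipocyte genes, Plin1 was at 0 in both and Lep had 127 and 10 counts. The part of these markers in the ratios of the WNT genes was not tested.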

How the data were processed

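Basal-cell colonies/organoids were measured by RNA-seq in 2 libraries, 1 control and 1 with TNF-α, grouped by the treatment label. The deposited table holds raw read counts of each gene beside its exon coordinates and summed exon length. The submitters' processing notes name GRCm38 (mm10). The aligner, counting tool, annotation and strand setting are not given in the sources used here. Of the 59 members, 51 had the same position in GENCODE M21.

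Scaling used TMM in edgeR (version 4.0.16, R 4.3.3). Log2 ratios had a prior count of 2 and were computed where both libraries together had at least 10 counts. The call was a fold over 2 with the 95% Clopper-Pearson interval past no change. That interval covers counting error only, since 1 library per condition gives no spread between cultures. It takes counts as independent, which amplified reads may not be. The quasi-likelihood test could not be fitted with 1 library per condition. Low counts were mostly even (2172 genes with 2 counts and 618 with 1 in the control, 2350 and 645 with TNF-α), so halved counts were an alternative. Other alternatives were total counts, upper quartile and DESeq2 (version 1.42.0) scaling, prior counts of 0.5 and 5, other filters and folds, a lowess correction on GC content and exon length, and the exact test of edgeR with the coefficient of variation assumed to be 0.2 or 0.4. The calling rule was also run on simulated counts with counting error only, where changes were planted in the more abundant genes. The simulation held no spread between cultures and no excess of even counts, so it cannot check the calls against either. Intervals came from scipy 1.17.1, the lowess fit from statsmodels 0.14.6 and plots from matplotlib 3.10.9, under Python 3.11.15 with pandas 2.3.3 and numpy 2.4.6.

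Genes described in full are those called, Axin2, Lgr5 and the 3 of highest level in each role. Of the other lists the called genes and the extremes are named, and other members and listed genes where a sentence needs them. The rule for members used gene names only, but members and lists were chosen with earlier results of these data known.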

Additional observations from a re-analysis of the deposited data

How the results depend on the processing

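No paired analysis was possible because there was a single library of each condition, and for the same reason leaving out a replicate was not possible. The 10 higher and 3 lower WNT genes were the same genes under total counts, upper quartile and DESeq2 scaling, prior counts of 0.5 and 5, no filter, the GC and length correction, and a fold of 2 without the interval. Halved counts left 9 higher (without Rspo3), beside 5.50% of all genes, and an interval wholly past 2-fold left 7 (without Lef1, Rspo2 and Rspo3), beside 3.74%.

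A filter of 1 CPM in a library removed Lef1, Rspo2, Rspo3 and Rspo4 and left 6 of 39 higher, beside 5.36% of all genes. A fold of 1.5 gave 14 higher and 6 lower, beside 12.1% and 10.3%. In edgeR's exact test with an assumed coefficient of variation of 0.2 there were 6 higher (without Lef1, Nkd2, Rspo2 and Rspo3) and 2 lower (without Lgr5), beside 3.59% and 2.52%. At 0.4 there were 2 higher (Dkk2 and Wif1) and 1 lower (Fzd10), beside 0.438% and 0.260% of all genes. The 7 calls among the other pathway genes became 4 with the interval wholly past 2-fold, 13 at a fold of 1.5, 4 at a coefficient of 0.2 and 0 at 0.4, of 51 genes and beside the same shares of all genes (with 2.70% lower for the interval wholly past 2-fold). The 1 call among the further targets became 2 at a fold of 1.5 and 0 at 0.4. The stricter thresholds and assumed spreads differ by construction, and the true spread between cultures is unknown.

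Of 189 single-gene ratios under other scalings, prior counts, halved counts and the GC correction, 182 stayed inside their counting interval and 5 left it with the same sign. The GC correction turned the sign of 2 that were not called, Lrp6 (0.02) and Axin1 (0.06). The median of the 46 genes ran from 0.16 to 0.26, and with no filter or with the 1 CPM filter, which change the genes counted, it was 0.09. At 10 counts the depth leaves changes of rare genes such as Wnt6 and Wnt7a undetermined.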

Other observations

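Several Wnt genes lie next to each other in the genome, and the neighbours of the called ligands had few counts. Wnt10a lies 6.19 kb from Wnt6 on the same strand of chromosome 1, and in that pair Wnt10a had 18 counts in the control and 89 with TNF-α, whereas Wnt6 had 6 and 10. Wnt10b lies 11.7 kb from Wnt1 on the opposite strand of chromosome 15, where Wnt10b had 16 and 101 counts and Wnt1 had 0 in both libraries. Wnt9a and Wnt3a lie 16.2 kb apart on chromosome 11, and Wnt9a had 123 and 135 counts against 0 for Wnt3a. Wnt3 and Wnt9b, 24.3 kb apart on the same chromosome, were both at 0 in both libraries.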
